A study of Mus musculus with 6 samples.

Results

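Lin28a, Lin28b, Trim71, Hmga2, Igf2bp1, Igf2bp2 and Igf2bp3, 7 genes tied to the let-7 microRNAs, were followed in mouse embryonic stem (ES) cells that were moved from serum into 2i+vitC. The members were found by name among the 12626 genes of the processed files, each on a single row, and all 7 were measured in every sample. The cells were wild-type J1 ES cells, a single line, grown without feeders on gelatin. At D0 they were in serum with 1000 U/mL of leukemia inhibitory factor (LIF). At D6 and D13 they were in 2i+vitC, a serum-free medium with the same LIF, 3 μM of the Gsk3 inhibitor CT-99021, 1 μM of the MEK inhibitor PD0325901 and 100 μg/mL vitamin C. RNA was sequenced from 2 biological replicates per day, 6 samples in all. No culture kept in serum until D6 or D13 is among the samples, so medium and time in culture cannot be told apart.

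LIN28 proteins bind let-7 precursors and block their maturation, and mature let-7 in turn represses the mRNAs of both Lin28 genes, which makes the pathway a double-negative loop. Lin28a is well known as an RNA-binding protein of pluripotent cells, and Lin28b is its paralog. Trim71 encodes a ubiquitin ligase and RNA-binding protein of early embryos, Hmga2 an architectural chromatin protein, and the Igf2bp genes a family of mRNA-binding proteins. All are textbook let-7 targets. Mature let-7 was not measured, since the libraries were made from mRNA, and no row of the files is named for a let-7 locus.

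The let-7 family members share their seed, the stretch of bases 2 to 8 by which a microRNA recognises its targets. The RefSeq table (GRCm38.p6) lists 9 different mature names of the family from the 5′ arm, which hold 1 seed. These 3 are shown, with the seed in capitals, because they differ outside it.
let-7a-5p: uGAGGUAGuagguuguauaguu
let-7g-5p: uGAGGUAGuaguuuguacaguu
miR-98-5p: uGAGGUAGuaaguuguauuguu
The precursor of let-7g, read from the plus strand of chr9:106178840-106178927, is shown for the letters GGAG in its loop, which LIN28 is known to bind and which stand in capitals.
let-7g precursor: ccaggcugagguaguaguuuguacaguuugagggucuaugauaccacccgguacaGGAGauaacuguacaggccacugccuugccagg
GGAG was present in 9 of 12 let-7 family precursors and in 44.5% of the 1005 precursors of the table. For these shares it was counted anywhere in the precursor, not only in the loop.

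Each of the 7 genes carried a full let-7 seed match in its 3′ UTR. The match searched was CTACCTCA on the sense strand, which is the complement of the seed followed by A, in the longest annotated 3′ UTR of each gene (GENCODE vM21, GRCm38). Of 21010 protein-coding genes with a 3′ UTR, 3.06% held it. Among 3′ UTRs within 20% of each member's length, the share ranged from 3.9% for the length of Igf2bp2 to 12.6% for that of Igf2bp1. As the members are known let-7 targets, this count describes them and tests nothing. The first such site of each gene is printed as 30 bases, with the match in capitals.
Lin28a: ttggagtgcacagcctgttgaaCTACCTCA
Lin28b: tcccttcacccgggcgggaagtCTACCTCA
Trim71: aaagtacaacattgcctaagtcCTACCTCA
Hmga2: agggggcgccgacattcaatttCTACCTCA
Igf2bp1: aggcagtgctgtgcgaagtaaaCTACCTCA
Igf2bp2: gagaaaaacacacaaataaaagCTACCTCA
Igf2bp3: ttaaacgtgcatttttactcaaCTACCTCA
All lie on the minus strand of GRCm38, in the 3′ UTR exon. They were at chr4:134005189-134005218 in Lin28a, chr10:45381022-45381051 in Lin28b and chr9:114512472-114512501 in Trim71. The other sites were at chr10:120364224-120364253 in Hmga2, chr11:95961778-95961807 in Igf2bp1, chr16:22059473-22059502 in Igf2bp2 and chr6:49086787-49086816 in Igf2bp3.

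The genes differed in how many matches they carried. Trim71 held 4 matches of 8 bases, Igf2bp1 held 3, Lin28a held 2 and the other members held 1 each. Counting also the 7-base matches CTACCTC and TACCTCA outside these, Hmga2 gained 6, Lin28b 4, Trim71 and Igf2bp1 2 each, Igf2bp2 1, and Lin28a and Igf2bp3 0. Among 3′ UTRs within 20% of its length, 0.13% held at least as many 8-base matches as Trim71. The share was 0.53% for Igf2bp1, 0.33% for Lin28a and 3.9% to 8.5% for the others. A 7- or 8-base match was present in 14.9% of all protein-coding genes with a 3′ UTR. These counts too describe known targets and test nothing. In Lin28b and Hmga2 the 8-base match began 36 and 58 bases after the stop codon, close to the start of 3′ UTRs of 4445 and 3014 bases. In Igf2bp1 and Igf2bp2 an 8-base match was followed closely by a 7-base match, at bases 1715 and 1734 after the stop codon of Igf2bp1 and at bases 1313 and 1330 in Igf2bp2. Close pairs also stood in Trim71, with 8-base matches at bases 3591 and 3617, and in Hmga2, with 7-base matches at bases 2591 and 2611. The pairs of Igf2bp1 and Igf2bp2 are printed with the second match in capitals.
Igf2bp1: taaactacctcaaggtgtgaagtTACCTCA
Igf2bp2: taaaagctacctcaggtgtttttTACCTCA
A match of letters is not a shown site of binding.

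**Figure D1:**
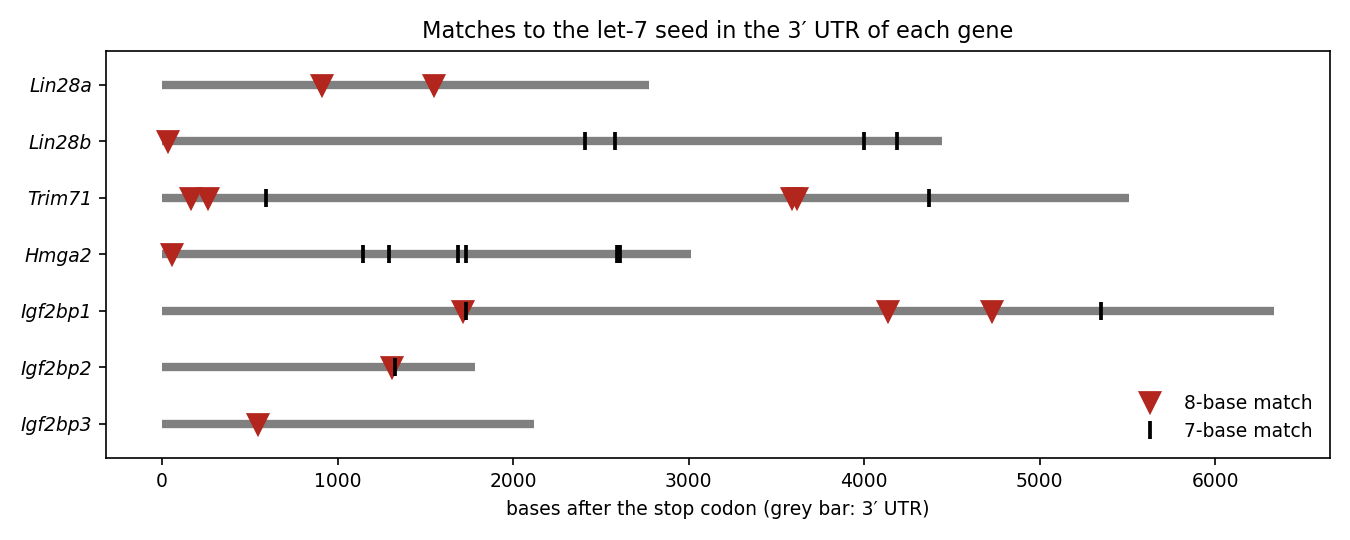
Positions of let-7 seed matches along the 3′ UTR of each gene, in bases after the stop codon. Triangles mark 8-base matches, ticks mark 7-base matches and grey bars span the 3′ UTR. Trim71 holds the most 8-base matches, 4, and Hmga2 the most 7-base matches, 6.

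The authors deposited log2 CPM, the log2 of reads per 1000000 counted reads after normalization (CPM), made with an offset of 0.5 read. Depth was even, with 73230745 to 83688345 reads on genes per sample, and 3 reads were worth at most 0.042 CPM, far under every value of the 7 genes. Differences between days were tested on the log2 values with limma, all 6 samples in a single fit, with p-values adjusted over all 12928 genes and transposon families. A gene was called changed at an adjusted p under 0.05. Each SD rests on 2 values, and the error after a log2 fold change is the standard error (SE) of the fit. The ES cell marker Pou5f1 had a log2 fold change from D0 to D13 of 0.04 ± 0.29 (SE, limma adjusted p = 0.922). Of the other ES cell markers, Nanog was higher at D13 by 1.37 ± 0.22 (limma adjusted p = 0.00141), Sox2 was lower by -0.69 ± 0.22 (limma adjusted p = 0.0312), and Zfp42 (-0.75 ± 0.30) and Esrrb (1.02 ± 0.41) were not called. The 5 summed to 2255 to 3427 CPM over the samples. Of the marker genes of formative or primed epiblast, the state just after naive pluripotency, 6 of 7 had a row. All 6 were called lower from D0 to D13, against 21.5% of all features. Their sum fell from 1083 and 1181 CPM at D0 to 116 and 165 CPM at D6 and 133 and 148 CPM at D13. From D6 to D13 Cldn6 alone of these was called, higher by 1.14 ± 0.25 (limma adjusted p = 0.0413). The remaining marker lists summed to less. Of 7 primitive endoderm genes, 5 had a row, and these summed to 154 and 241 CPM at D0 and 89.1 to 131 CPM later. From D0 to D13 Col4a1 (-5.33 ± 0.57) and Dab2 (-4.66 ± 0.40) were called lower. Lama1 (0.59), Sox17 (0.30) and Pdgfra (0.69) were not called. Of 5 neural genes, 4 had a row, and these summed to 118 and 170 CPM at D0 and 51.9 to 87.4 CPM later. From D0 to D13 Sox1 was called higher (1.86 ± 0.33) and Map2 lower (-2.57 ± 0.42), while Nes (-0.67) and Sox3 (-0.79) were not called. Eomes, the only mesoderm gene with a row, stayed at 2.97 to 5.41 CPM. Fibroblast genes summed to 29.7 CPM in D0 replicate 1, 10.1 CPM in D0 replicate 2 and 4.86 to 5.62 CPM later. The part of these lists in the results below was not tested. In bulk RNA, fewer cells with a transcript and less of it per cell cannot be told apart.

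From D0 to D13 the 7 genes split by direction. Lin28a, Lin28b, Trim71 and Igf2bp1 were lower at D13, and Hmga2, Igf2bp2 and Igf2bp3 were higher, all 7 past the threshold. Over all genes and families, 42.1% were called in this comparison, 21.5% lower and 20.6% higher. With the 4-fold minimum that the study used for genes, 4 members were called, Lin28a, Lin28b, Trim71 and Hmga2, against 13.3% of all features. Hmga2 was near that minimum, at 4.18-fold. With each sample left out, its log2 fold change ranged from 1.53 to 2.60, on either side of 4-fold. From D0 to D6, 4 members were called, 2 lower (Lin28a and Lin28b) and 2 higher (Hmga2 and Igf2bp3), against 23.9% of all features, 10.2% lower and 13.7% higher. Of these, Lin28a and Lin28b passed 4-fold, as did 9.75% of all features. From D6 to D13, Lin28b alone was called, lower and by more than 4-fold, where 4.18% of all features were called, 2.78% were called lower and 1.1% passed 4-fold. The replicates of the days compared did not overlap for 6 of 7 members in the first step, 6 in the second and all 7 over both. This is common in these data, with 68.4%, 60.7% and 68.8% of all features in the same comparisons.

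**Figure D2:**
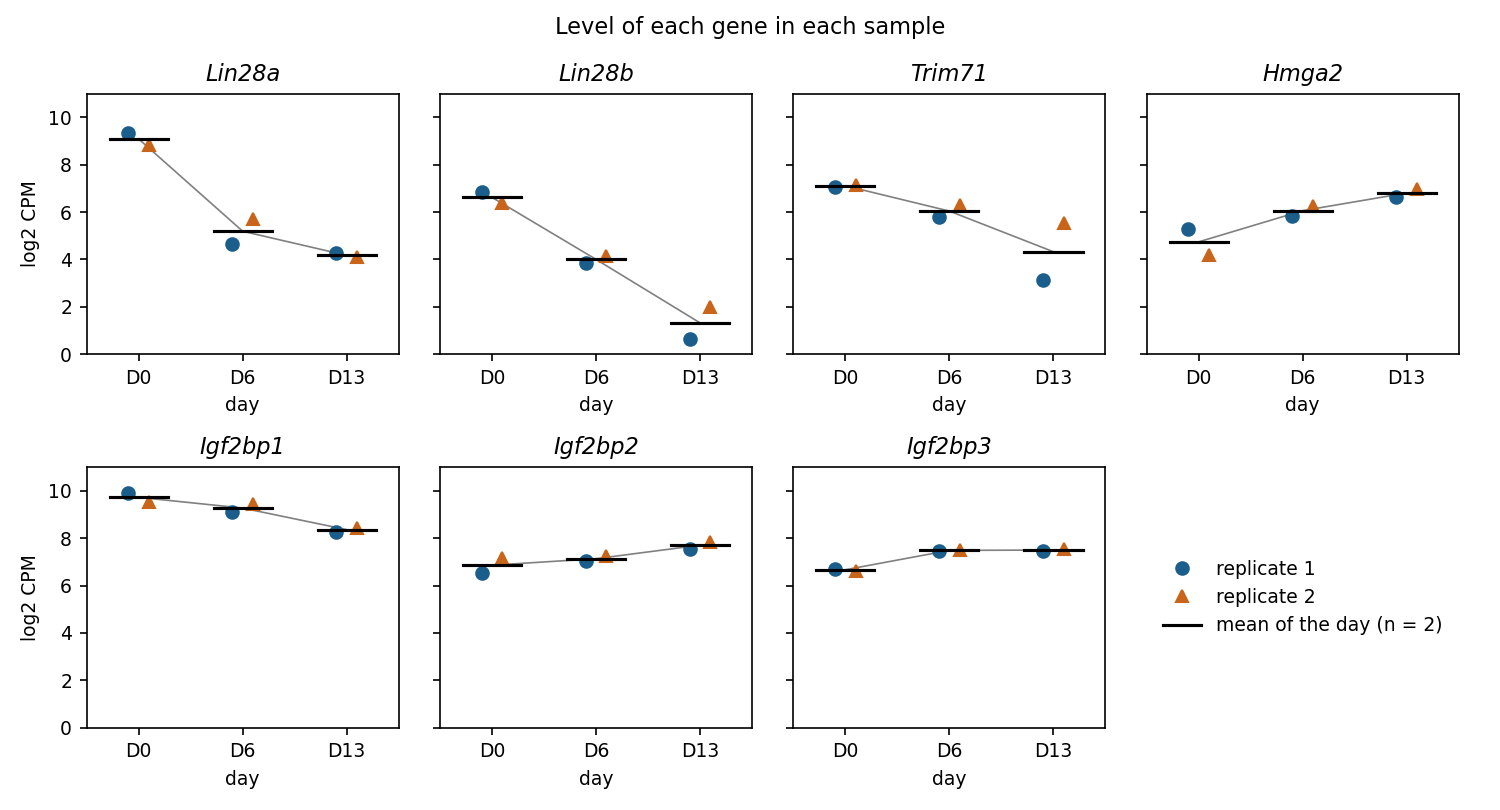
Level of each gene in log2 CPM (vertical axis) at D0, D6 and D13 (horizontal axis). Circles and triangles are replicates 1 and 2, and black bars are the mean of the day (n = 2). The Lin28 genes, Trim71 and Igf2bp1 end lower at D13 than at D0, and Hmga2, Igf2bp2 and Igf2bp3 end higher.

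Lin28a, the main LIN28 protein gene of ES cells (chr4:134003330-134018841, minus strand), fell mostly within the first 6 days. Its log2 CPM was 9.35 and 8.82 at D0, then 4.66 and 5.72 at D6, and finally 4.26 and 4.09 at D13. The 6 values fall without overlap in the order of the days, with the replicates of D6 the farthest apart. In reads, this was 51362 and 39342 at D0 against 1367 and 1276 at D13. The fall from D0 to D6 was 14.8-fold, with a log2 fold change of -3.89 ± 0.35 (SE, limma adjusted p = 0.000128), and 79.3% of the whole log2 change to D13 was present at D6. With each D6 replicate alone this share was 90.1% and 68.4%. The further difference from D6 to D13, -1.02 ± 0.35, did not pass the test (limma adjusted p = 0.123). It was -1.55 without D6 replicate 1 and -0.48 without D6 replicate 2, neither called. Over both steps, Lin28a was 30.1-fold lower at D13 than at D0 (log2 fold change -4.91 ± 0.35, limma adjusted p = 3.1e-05).

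Lin28b, its paralog (chr10:45376620-45486395, minus strand), fell in both steps. The replicates gave log2 CPM of 6.85 and 6.38 at D0, 3.85 and 4.16 at D6, then 0.64 and 2.01 at D13. Each day lay wholly below the day before it, and the D13 replicates, with 111 and 302 reads, differed most. The first step measured -2.61 ± 0.43 on the log2 scale (limma adjusted p = 0.00252) and the second step -2.68 ± 0.43 (limma adjusted p = 0.0232). Of the whole log2 change, 49.4% was present at D6. From D0 to D13 Lin28b was 39.2-fold lower, by -5.29 ± 0.43 (limma adjusted p = 5.35e-05). Without D13 replicate 1 this change was -4.61 and without D13 replicate 2 it was -5.98, both still called. The step from D6 to D13 was -1.99 without D13 replicate 1 and no longer called (limma adjusted p = 0.104), was not called either without D6 replicate 2 (-2.53, limma adjusted p = 0.0712), and was -3.36 without D13 replicate 2.

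Per length of exon, Lin28a stood above Lin28b in every sample. At D0 Lin28a was at 138 ± 36 CPM per kb and Lin28b at 18.4 ± 4.2 (SD, n = 2), a ratio of 7.62 and 7.30 in the replicates. The ratio was 2.36 and 4.004 at D6, then 16.6 and 5.70 at D13. Both D6 values lay below both D0 values, while the D13 values lay on either side of them. Summed, the Lin28 genes stood at 185 and 128 CPM per kb at D0, 8.99 and 16.5 at D6, then 5.08 and 5.002 at D13.

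Trim71 (chr9:114507133-114564369, minus strand) went down with a wide spread at the end. Its log2 CPM was 7.06 and 7.16 at D0, 5.79 and 6.29 at D6, then 3.12 and 5.54 at D13. The days did not overlap, but the D13 replicates, at 620 and 3485 reads, were farther apart than the replicates of any other member on any day. From D0 to D13 Trim71 fell by 2.78 ± 0.63 on the log2 scale, which is 6.88-fold (limma adjusted p = 0.00775). Without D13 replicate 1 the change was -1.57 and without D13 replicate 2 it was -3.99, both called, and without D0 replicate 2 it was -2.73 and just not called (limma adjusted p = 0.0503). The separate steps, -1.07 ± 0.63 until D6 (limma adjusted p = 0.264) and -1.71 ± 0.63 after it (limma adjusted p = 0.141), did not pass the test. The first step was called when D13 replicate 1, D13 replicate 2 or all of D13 was left out, at limma adjusted p of 0.0146, 0.0153 and 0.0141. The second step was -2.92 and called without D13 replicate 2 (limma adjusted p = 0.025), and -0.50 without D13 replicate 1 (limma adjusted p = 0.361).

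Hmga2, a well known target of let-7 (chr10:120361275-120476469, minus strand), rose while the Lin28 genes fell. Log2 CPM was 5.28 and 4.21 at D0, 5.84 and 6.27 at D6, then 6.65 and 6.96 at D13. The days were again in order without overlap, this time upward, and the D0 replicates were the farthest apart. By D13 Hmga2 was 4.18-fold higher than at D0, with a log2 fold change of 2.06 ± 0.35 (limma adjusted p = 0.002). It was 2.49-fold higher at D6, by 1.32 ± 0.35 (limma adjusted p = 0.0252), which was not called without D0 replicate 2 (0.78, limma adjusted p = 0.103) or without D6 replicate 2 (1.10, limma adjusted p = 0.128). The difference of 0.75 ± 0.35 from D6 to D13 did not pass (limma adjusted p = 0.229).

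The Igf2bp genes, whose proteins bind Igf2 and Myc mRNA among others, did not move alike. Igf2bp1 (chr11:95957163-96005940, minus strand) was lower at D13, with log2 CPM of 9.92 and 9.52 at D0, 9.10 and 9.43 at D6, then 8.28 and 8.44 at D13. Each day lay below the last, with the nearest D0 and D6 replicates only a little apart. Over the 13 days it fell by 1.36 ± 0.24 on the log2 scale, which is 2.57-fold (limma adjusted p = 0.00259). Neither step alone passed the test, at -0.45 ± 0.24 (limma adjusted p = 0.223) and -0.91 ± 0.24 (limma adjusted p = 0.0671).

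Igf2bp3 (chr6:49085223-49214957, minus strand) rose by D6, with no further difference detected at D13. It stood at 6.71 and 6.62 log2 CPM at D0, 7.47 and 7.50 at D6, then 7.47 and 7.52 at D13. D6 and D13 overlapped and D0 lay below both. The rise to D6 was 1.76-fold, at 0.82 ± 0.19 on the log2 scale (limma adjusted p = 0.0157), and it was not called without D6 replicate 1 or D6 replicate 2 (limma adjusted p = 0.179 and 0.181). From D6 to D13 the difference was 0.02 ± 0.19 with a 95% interval from -0.42 to 0.46 (limma adjusted p = 0.969). At D13 Igf2bp3 was higher than at D0 by 0.83 ± 0.19 (limma adjusted p = 0.00905).

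Igf2bp2 (chr16:22059009-22163299, minus strand) rose the least surely. It was at 6.54 and 7.18 log2 CPM at D0, 7.04 and 7.23 at D6, then 7.55 and 7.85 at D13. D0 and D6 overlapped, and both D13 values lay above the rest. From D0 to D13 it was 1.797-fold higher, by 0.85 ± 0.26 (limma adjusted p = 0.0294). This call was lost without D0 replicate 1 (0.53), D13 replicate 2 (0.69), D6 replicate 1 or D6 replicate 2. The steps were 0.28 ± 0.26 and 0.57 ± 0.26 and did not pass (limma adjusted p = 0.502 and 0.219).

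The genes also differed in how much of the log2 change from D0 to D13 was present at D6. Beside 79.3% for Lin28a and 49.4% for Lin28b, it was 98.1% for Igf2bp3, 63.8% for Hmga2, 38.4% for Trim71, 33.3% for Igf2bp1 and 32.6% for Igf2bp2. With each D6 replicate alone, the share of Igf2bp1 was 45.5% and 21.0% and that of Trim71 was 47.4% and 29.4%. That of Lin28b was 52.3% and 46.5%, and that of Hmga2 was 53.4% and 74.3%. The lower 3 genes therefore cannot be ranked, nor can Trim71 against Lin28b or Hmga2 against Lin28a. These shares were not tested.

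**Figure D3:**
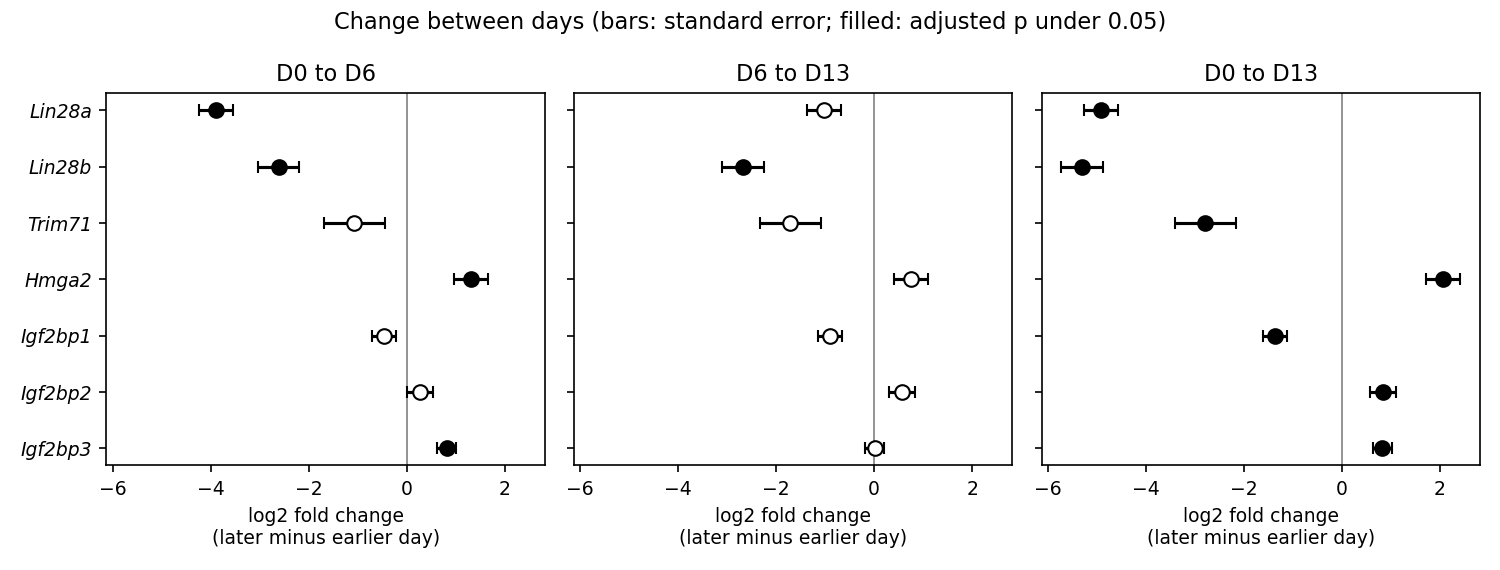
Log2 fold change of each gene (horizontal axis, later minus earlier day) in the 3 comparisons, with bars for the standard error of the limma fit of 6 samples. Filled points passed an adjusted p under 0.05: 4 of 7 genes in the first step, 1 in the second and 7 over both.

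With these opposite directions, the makeup of the Igf2bp family shifted. Per length of exon, Igf2bp1 made up 71.1% and 60.01% of the family at D0, 47.2% and 51.2% at D6, then 29.8% and 29.4% at D13. Igf2bp2 went from 14.1% and 24.5% at D0 to 37.3% and 40.6% at D13, and Igf2bp3 from 14.8% and 15.5% to 32.9% and 30.04%. For all 3 genes the D13 shares lay outside the range of the D0 shares. The family summed to 163 and 146 CPM per kb at D0, 139 and 161 at D6, then 124 and 141 at D13. D0 and D6 overlapped, while both D13 sums lay below both D0 sums. The shares and the sum of the family were not tested.

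**Figure D4:**
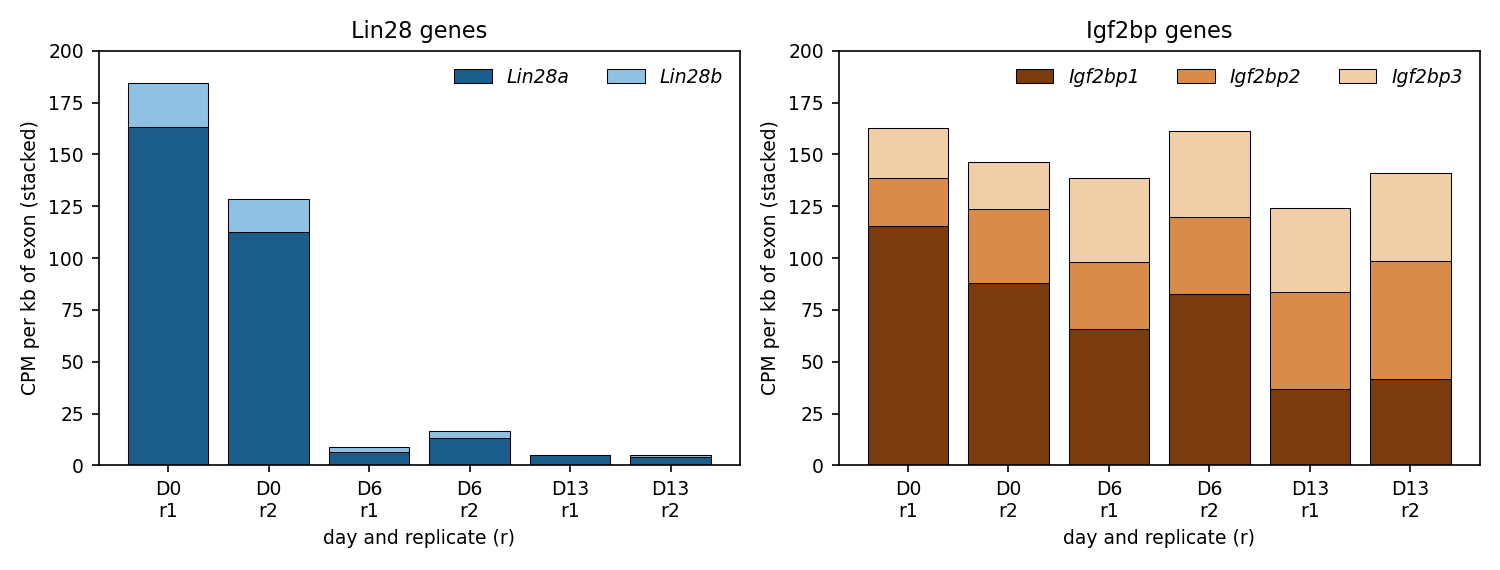
Stacked levels in CPM per kb of exon (vertical axis) of the Lin28 genes (left) and the Igf2bp genes (right) in each sample (horizontal axis, day and replicate). The Lin28 sum drops from 185 and 128 at D0 to about 5 at D13. The Igf2bp sum goes from 163 and 146 at D0 to 124 and 141 at D13, and its makeup changes.

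The order of the 7 genes by level per length changed with the days. At D0 it was Lin28a, Igf2bp1, Igf2bp2, Igf2bp3, Lin28b, Trim71 and Hmga2, from 138 to 7.51 CPM per kb, where the neighbours Lin28a and Igf2bp1, and Igf2bp2 and Igf2bp3, overlapped. At D6 Igf2bp1 led at 74.1 ± 12.1 CPM per kb, and Lin28a, at 9.77 ± 4.88, stood below Hmga2 at 17.7 ± 3.7. At D13 the Igf2bp genes led, with Igf2bp2 at 51.8 ± 7.7, Igf2bp3 at 41.6 ± 1.1 and Igf2bp1 at 39.2 ± 3.1 CPM per kb (SD, n = 2), of which the last 2 overlapped. Hmga2, lowest at D0, followed at 29.5 ± 4.5. Lin28a at 4.52 ± 0.38 and Trim71 at 2.95 ± 2.86 overlapped, and Lin28b was lowest at 0.52 ± 0.32.

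The other genes of the pathway were taken from lists, described by their counts and medians. Their counts are read against the shares of all features called, 42.1% from D0 to D13 (21.5% lower and 20.6% higher), 23.9% in the first step and 4.18% in the second. Of 22 genes of microRNA processing and let-7 turnover, 8 were lower and 3 higher from D0 to D13, or 50% called against 42.1% of all features, with a median log2 fold change of -0.64 against -0.02 over all features. Dgcr8, the partner of Drosha in the Microprocessor, was at 6.87 and 6.64 log2 CPM at D0, 6.05 and 6.28 at D6, then 4.54 and 5.03 at D13, a log2 fold change of -1.96 ± 0.24. Dicer1, which cuts precursors to mature microRNAs, changed by -1.56 ± 0.29, and Tnrc6c, a partner of Argonaute in repression, by -1.39 ± 0.36. Both Dgcr8 and Dicer1 were lower in every D13 sample than in every D0 sample, where 68.8% of all features did not overlap between these days. Dis3l2, the exonuclease that degrades uridylated let-7 precursors, rose by 1.32 ± 0.28, from 3.91 and 4.67 to 5.62 and 5.59 log2 CPM. Ago4, an Argonaute with 59 and 156 reads at D0, rose by 2.33 ± 0.45, and by 1.71 without D0 replicate 1 and 2.95 without D0 replicate 2. Hnrnpa1, which binds some let-7 precursors, rose by 0.90 ± 0.26 and was not called without D0 replicate 1 or D13 replicate 1. It has many near-identical processed copies in the genome, so its count is uncertain. Zcchc11, the uridylyl transferase that LIN28 recruits, changed by -0.35 ± 0.36 (limma adjusted p = 0.461). It was named after its value was seen. From D0 to D6, 1 gene of this list was called lower, Dicer1, a call lost when any replicate of D0 or D6 was left out. From D6 to D13, Dgcr8 and Ago1 were lower. This count of 2 was 0 without D6 replicate 1, D6 replicate 2 or D13 replicate 1, and 6 without D13 replicate 2. The count of 8 lower genes was 5 without D0 replicate 2 and 14 without D13 replicate 2, and Tnrc6c was not called without D0 replicate 2 or D13 replicate 1.

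Of 25 other genes known as let-7 targets, 23 had a row, of which 6 were lower, 1 was higher and 16 were not called from D0 to D13. This is 30.4% called, below the 42.1% of all features, with a median log2 fold change of -0.63 against -0.02. Myc, the growth-promoting transcription factor, was at 6.55 and 5.45 log2 CPM at D0, 0.66 and 1.78 at D6, then -0.86 and -1.12 at D13, with only 39 and 34 reads in the last samples. Its log2 fold change of -6.99 ± 0.49 from D0 to D13 was larger in size than that of any member. Mycn, its relative, fell by 2.85 ± 0.21, from 8.68 and 8.59 to 5.69 and 5.89 log2 CPM. Ccnd2, which encodes cyclin D2, was at 5.45 and 2.82 at D0 and -1.09 and -2.02 at D13. It fell by 5.69 ± 1.08, by 4.38 without D0 replicate 1 and by 7.01 without D0 replicate 2. Cdc25a, a phosphatase that drives the cell cycle, was the gene that rose, by 0.95 ± 0.23. From D0 to D6, 5 of the 23 were lower, 3 without D6 replicate 1, and from D6 to D13 Myc alone was, by -2.21 ± 0.49, a call lost without D6 replicate 2, D13 replicate 1 or D13 replicate 2 (limma adjusted p = 0.335, 0.165 and 0.0821). It was also lost with voom weights (limma adjusted p = 0.121), without a trend (limma adjusted p = 0.0515) and on log2(CPM + 1), where the change was -1.17 (limma adjusted p = 0.116), and without D13 replicate 2 this list had 4 genes called lower. The count of 6 became 12 without D13 replicate 2.

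The insulin-like growth factor (IGF) system, which includes the Igf2 mRNA that gave the Igf2bp proteins their name, had 11 of 13 genes with a row. From D0 to D13, 5 were lower and 2 higher, or 63.6% called against 42.1% of all features, with a median log2 fold change of -1.06 against -0.02. Igf2, a fetal growth factor, was at 6.75 and 4.77 log2 CPM at D0, 3.25 and 2.05 at D6, then 1.81 and 0.78 at D13. It changed by -4.46 ± 0.66, by -3.47 without D0 replicate 1 and by -5.46 without D0 replicate 2. H19, the noncoding neighbour of Igf2 in the same imprinted domain, changed by -5.92 ± 0.86, by -4.75 and -7.08 without those replicates in turn. In every sample pair of a day, replicate 1 was the higher for both genes, by over 1 on the log2 scale. The fibroblast gene sum was also higher in replicate 1 of D0, at 29.7 against 10.1 CPM. In replicates 1 and 2 it was 5.11 and 4.86 CPM at D6, then 5.50 and 5.62 CPM at D13. Its part in the values of Igf2 and H19 was not tested. Igfbp3, which encodes an IGF-binding protein, changed by -4.05 ± 0.39, and Igf1r, the IGF receptor and a listed let-7 target named after its value was seen, by -2.08 ± 0.28. Igfbp2 rose by 1.55 ± 0.24, from 6.92 and 6.74 to 8.67 and 8.09 log2 CPM. Igfbp5 rose by 1.32 ± 0.41 from under 100 reads at D0, and lost its call whichever of the 6 samples was left out (limma adjusted p from 0.0516 to 0.114). From D0 to D6, 7 genes of the list were lower and 1 higher, and from D6 to D13 limma called 0, as it did with voom weights, while 5 genes had an unadjusted p under 0.05 and 1 was called higher without D13 replicate 2. The count of 7 was smaller whichever of the 6 samples was left out. Among the 7, H19 (-3.10 ± 0.86) was not called in a fit of only these 2 days (limma adjusted p = 0.0553). The higher gene, Igfbp2, was not called without either replicate of D0 or of D6.

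Of 7 genes listed as TRIM71 partners or target transcripts, 3 were higher and 1 was lower at D13 than at D0, or 57.1% called against 42.1% of all features, with a median log2 fold change of -0.23 against -0.02. Cdkn1a, which encodes the cell cycle inhibitor p21, was at 5.07 and 5.06 log2 CPM at D0, 7.65 and 7.52 at D6, then 8.11 and 8.10 at D13, a change of 3.04 ± 0.19. Rbl1 and Rbl2, relatives of the retinoblastoma gene, changed by 1.35 ± 0.24 and 1.56 ± 0.36, the second not called without D0 replicate 1. Egr1, an early response gene that follows MEK and ERK signalling, went the other way, from 6.24 and 7.08 log2 CPM at D0 to 0.10 and -1.22 at D6, then -0.45 and -1.16 at D13. The medium that differed between these days holds a MEK inhibitor, and its part in any of these values was not tested. From D0 to D6, Cdkn1a and Rbl1 were higher and Egr1 lower, and from D6 to D13 limma called 0 of the 7, as it did with voom weights, while 1 had an unadjusted p under 0.05 and 1 was called lower without D13 replicate 2. Rbl1 lost its call at D6 without D0 replicate 1, D6 replicate 1 or D6 replicate 2, and without D13 replicate 2 the lower genes from D0 to D13 were 3 in place of 1. Of 15 let-7 loci and host genes, Huwe1 and Wdr82 had a row, and neither was called from D0 to D13, at -1.01 ± 0.37 and -0.03 ± 0.24 (limma adjusted p = 0.0542 and 0.917). Of these 2 genes, 1 was called lower without D13 replicate 2.

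**Figure D5:**
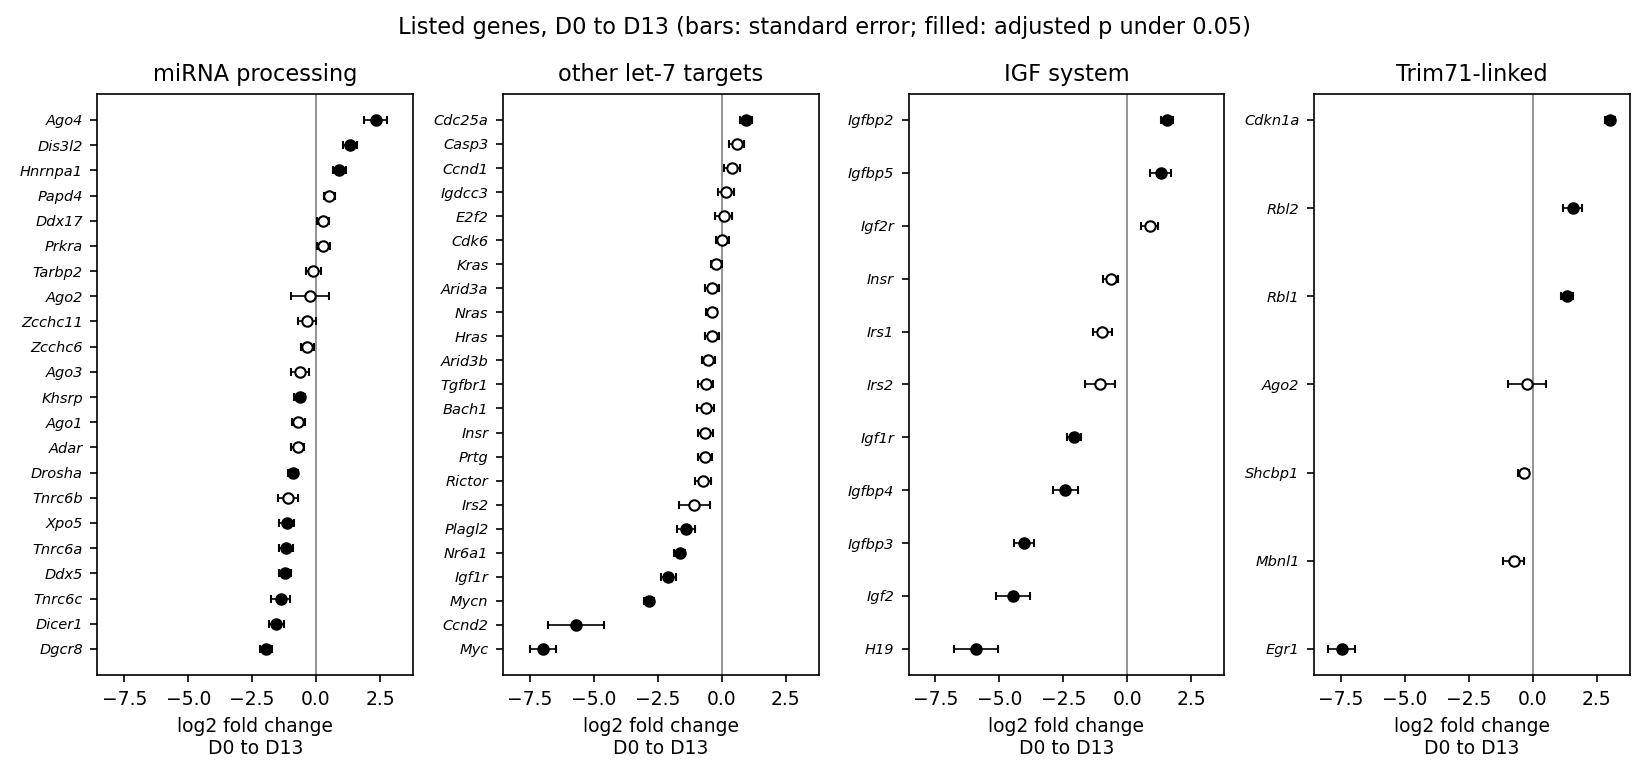
Log2 fold change from D0 to D13 (horizontal axis) of every listed gene with a row, by list, with bars for the standard error of the limma fit. Filled points passed an adjusted p under 0.05, which 11 of 22 microRNA processing genes, 7 of 23 other let-7 targets, 7 of 11 IGF genes and 4 of 7 Trim71-linked genes did.

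The genes most like each member were found by the root mean square difference of centred log2 CPM over the 6 samples, among 11389 other genes. Closest to Lin28a were Pdzd4 (0.24) and Trh (0.29), the gene for thyrotropin-releasing hormone. Pdzd4 had log2 CPM of 8.11 and 7.997 at D0, 4.19 and 4.72 at D6, then 3.51 and 3.33 at D13, an early fall like that of Lin28a. Closest to Lin28b were Ehd3 (0.19) and Rnf165 (0.33), and closest to Trim71 were Nsun3 (0.26) and Spred2 (0.26). Spred2, an inhibitor of the Ras and ERK pathway, also had D13 replicates far apart, at 3.08 and 4.95 log2 CPM. Hmga2 was most like Micall2 (0.15) and Mb21d1 (0.19), Igf2bp1 like Eif2ak1 (0.04) and Imp4 (0.07), Igf2bp2 like Ctc1 (0.11) and Kansl1l (0.11), and Igf2bp3 like Clcn2 (0.06) and Tmem135 (0.07). Small differences are easier to reach for members whose level moved little.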

How the data were processed

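RNA-seq of wild-type J1 ES cells at D0, D6 and D13 was analysed, 2 replicates per day. The authors mapped reads to mm10 with TopHat2 (version 2.0.6 in the submitters' processing notes), counted them on RefSeq genes with HTSeq 0.6.1, counted transposon reads mapped with Bowtie 1.0.0 per family, normalized both together by TMM and deposited voom log2 CPM. Whole reads could be read off the values of all genes, within 0.1 read. The log2 values were tested with limma 3.58.1 (R 4.3.3), with a mean per day, a mean-variance trend and Benjamini-Hochberg adjustment. The fit was tested on simulated counts with a single setting of the spread for all features and no replicate effect. That test does not check the calls under the real spread of these samples. Tables were made with Python 3.11.15 and pandas 2.3.3. Lengths, positions and 3′ UTRs are from GENCODE vM21 (GRCm38), while the authors counted on RefSeq.

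The members and lists were chosen with earlier results of these data known. Besides the members, the text names up to 3 genes per list and direction with the largest change from D0 to D13 among those called, and the 2 genes most like each member. Outside this rule it names Zcchc11, Igf1r, marker genes, and Ago1, which was called from D6 to D13. It also names Huwe1 and Wdr82, the only genes of their list with a row. No gene name in the files holds a capital G, which touches no member. Two-sided tests were used throughout. Alternatives were a replicate block, only the 2 days compared, a filter on low values, no trend, log2(CPM + 1), median centring, voom weights, adjustment over genes only, 2-fold and 4-fold minimums, an adjusted p under 0.01 and each sample left out.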

Additional observations from a re-analysis of the deposited data

How the results depend on the processing

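Of 294 comparisons of a member's log2 fold change with an alternative, 272 kept direction and call, 14 lost the call, 5 gained it and 3 changed sign, each of the last without a call. The calls of Lin28a, those of Lin28b until D6, and those of Lin28b, Hmga2, Igf2bp1 and Igf2bp3 between D0 and D13 held in all 14 alternatives fitted for each. Members called from D0 to D6 were 2 with the 4-fold minimum or an adjusted p under 0.01, in place of 4. From D6 to D13 they were 0 by limma at an adjusted p under 0.01, in place of 1, with 4 at an unadjusted p under 0.05. From D0 to D13 they were 4 with the 4-fold minimum, in place of 7. Without a trend, Hmga2 until D6 (1.32, limma adjusted p = 0.0506) and Igf2bp2 from D0 to D13 (0.85, limma adjusted p = 0.0563) were not called. In fits of only the 2 days, Igf2bp2 from D0 to D13 (0.85, limma adjusted p = 0.0522) was not called and Trim71 until D6 (-1.07, limma adjusted p = 0.0141) was. The cause was not tested.

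Leaving out each sample in turn gave 2 to 5 members called from D0 to D6 and 0 to 2 from D6 to D13. The ranges of log2 fold change were -3.36 to -1.99 for Lin28b from D6 to D13, -1.32 to -0.82, -2.92 to -0.50 and -3.99 to -1.57 for Trim71 from D0 to D6, D6 to D13 and D0 to D13, and 0.78 to 1.85 for Hmga2 from D0 to D6. They were -0.044 to 0.60 and 0.53 to 1.17 for Igf2bp2 from D0 to D6 and D0 to D13, and 0.77 to 0.86 and -0.010 to 0.042 for Igf2bp3 from D0 to D6 and D6 to D13. The changes of sign were in Igf2bp2 from D0 to D6 without D0 replicate 1 (-0.044) and in Igf2bp3 from D6 to D13 without D13 replicate 2 (-0.010) or D6 replicate 1 (-0.00031). Without D13 replicate 1, limma called 0 features from D6 to D13, and 2312 had an unadjusted p under 0.05. Features called from D6 to D13 were 64 without D6 replicate 1, 21 without D6 replicate 2 and 1357 without D13 replicate 2, in place of 540, and from D0 to D6 they were 1602 without D6 replicate 1 and 1821 without D6 replicate 2, in place of 3090.

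Differences between replicates correlated by -0.06, 0.24 and 0.12 over features for D0 with D6, D6 with D13 and D0 with D13. These values do not settle whether the replicate numbers pair the samples. With a replicate block, 2 members were called from D6 to D13, Trim71 among them (-1.71, limma adjusted p = 0.0258), and 1251 features in place of 540. With the block, the genes called lower from D6 to D13 were also 4 of the other let-7 targets in place of 1 and 2 of the IGF list in place of 0, 1 let-7 host gene was lower from D0 to D13 in place of 0, and 1 microRNA processing gene was higher from D0 to D6 in place of 0. On log2(CPM + 1), called changes of low genes shrank, such as Myc (-5.43), Ccnd2 (-3.81), H19 (-4.13), Egr1 (-6.01) and Ago4 (1.63) from D0 to D13. With 2 replicates per day an SD rests on 2 values. The lowest depth of a member was 111 reads, in Lin28b at D13 replicate 1.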
